A study of Chelidonium majus with 4 samples.

Results

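A set of 224 contigs from the transcriptome of *Chelidonium majus* was counted in both leaf libraries and in neither root library. *C. majus*, the greater celandine, is a plant of the poppy family whose tissues carry a coloured latex rich in benzylisoquinoline alkaloids. The members were selected on the counts themselves: at least 100 counts in leaf 3 and in leaf 4, and 0 counts in root 2 and in root 4. They are 224 of the 232701 contigs of the assembly, and 224 of the 21157 contigs that reached 100 counts in both leaf libraries. Because the counts chose the members, a test of leaf against root says nothing further about them, and their absence from root is the rule and not a result.

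RNA from leaf and root of greenhouse plants, for which no treatment is named, was sequenced in 2 libraries per tissue, leaf 3, leaf 4, root 2 and root 4. All the libraries came from the accession IBRCP1006619, described as a high producer of the alkaloid chelidonine. The paper calls them biological replicates, while neither it nor the labels say which plant or plants a library came from. The contigs were put together without a genome by the assembler BinPacker, and the table gives RSEM's estimate of the counts of each contig. Both tissues are mixtures of cell types, in which fewer cells of a type and less RNA per cell cannot be told apart.

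A leaf and a root carry the same genome and read different parts of it. Leaf mesophyll cells are known for the nuclear genes of photosynthesis, such as those of the light-harvesting proteins and of the small subunit of Rubisco, and the leaf epidermis for genes of cuticle and stomata, many of which are silent or nearly so in roots grown in the dark. An assembled contig is a stretch of RNA sequence and not a gene: alternative splicing, alleles and assembly errors can each give several contigs for 1 gene. The assembler groups contigs into components, which may also join near-identical gene copies, so that a component is not a gene either. The sources used here pair none of the 224 contigs with a gene name, so no contig is assigned a function below and the tissue labels could not be checked against marker genes. The sequences of the contigs were not used here.

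Depth ran from 15281682 counts in root 4 to 19781065 in root 2, with 17913566 in leaf 3 and 19259712 in leaf 4. Levels are given as CPM, counts scaled to a common library total, after scaling by TMM, a scaling that sets the bulk of the contigs level between libraries, and are not divided by contig length, so that they compare 1 contig across libraries and not contigs with each other. On this scale 1 count stands for 0.0552 CPM in leaf 3 and 0.0484 in leaf 4, and for 0.0711 CPM in root 2 and 0.0564 in root 4. A count of 0 allows up to 3 counts, which is 0.213 CPM in root 2 and 0.169 in root 4, or 0.0943 CPM over both root libraries together. These limits cover counting error only. Root 2 stands apart in that 22.1% of its counts lie in 33 contigs of a single component, against 2.41% in root 4, 8.02% in leaf 3 and 0.323% in leaf 4.

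The 224 contigs together held 82862 counts of leaf 3 and 102750 counts of leaf 4. That is 0.463% of the counts of leaf 3 (95% Wilson interval 0.459 to 0.466, counting error only) and 0.533% of those of leaf 4 (0.530 to 0.537). The gap between the 2 leaf libraries is wider than either interval, and the mean was 0.498% ± 0.0502 (SD, n = 2 libraries). These shares are of unscaled totals. The component of 33 contigs named above took 8.02% of the total of leaf 3 and 0.323% of that of leaf 4. It thus lowers the share in leaf 3 more, and the gap is not one of the members alone. Counts per contig had a median of 222.5 in leaf 3, with a range of 100 to 3568, and of 283 in leaf 4, with a range of 104 to 4266. The median leaf level of the members was 12.9 CPM, between quartiles of 8.53 and 23.3. All 21157 contigs that passed the leaf limit had a median of 15.4 CPM, between quartiles of 9.22 and 31.9, and reached 9250 CPM at the top, where the highest member stood at 202 CPM.

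A small part of the members carried much of the signal. The most abundant contig held 4.31% of the members' counts in leaf 3 and 4.15% in leaf 4, and the 12 most abundant 26.1% and 26.9%. The upper 41 contigs, ordered by their mean leaf level, reached the middle of the members' counts in leaf 3, and the upper 40 did in leaf 4. Among all contigs ranked by leaf level, 2 members lay within the first 1000, 10 within the first 2000, 30 within the first 5000 and 85 within the first 10000.

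The most abundant member was TR3532|c134116_g1_i1, with 3568 counts in leaf 3 and 4266 in leaf 4 and none in either root library. Its level was 202 ± 6.66 CPM (SD, n = 2 leaf libraries), rank 614 of all contigs in leaf. Setting root to 3 counts in all instead of 0, it was at least 2140-fold higher in leaf. Next stood TR34361|c132094_g1_i1, with 2352 and 2839 counts in leaf 3 and leaf 4 and 0 in both root libraries, at 134 ± 5.31 CPM and at least 1420-fold. TR22931|c103007_g1_i1 had 2453 and 2588 leaf counts and 0 in root, and its neighbour in the same component, TR22932|c103008_g1_i1, had 1921 and 1816 with 0 in root. These 2 contigs make up the whole of component 2293, so nothing of that component was counted in root.

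TR14491|c55862_g1_i1 had 1963 counts in leaf 3, 3136 in leaf 4 and 0 in both root libraries, a level of 130 ± 30.7 CPM. TR21431|c98784_g1_i1 had 1755 and 2629 leaf counts with 0 in root, at 112 ± 21.4 CPM. Both stand alone in their components, and both were higher in leaf 4, by 1.40-fold and 1.31-fold. The other 6 of the 12 most abundant, each with 0 in both root libraries, ran from 84.4 ± 14.7 CPM in TR11851|c24473_g1_i1 (1341 and 1959 leaf counts) to 69.3 ± 13.5 CPM in TR19051|c91164_g1_i1 (1083 and 1630). Between them lay TR38201|c139212_g1_i1 at 80.8 ± 3.48, TR25261|c109441_g1_i1 at 78.5 ± 15.0, TR51121|c161275_g1_i1 at 76.4 ± 0.806 and TR24791|c108125_g1_i1 at 72.1 ± 16.7 CPM. Among these 6, each step from 1 contig to the next was smaller than the SD of at least 1 contig of the pair. The order is one of counts per contig, to which contig length contributes. Over all 224 contigs the bound on the fold, computed in the same way, had a median of 137 and ran from 56.0 to 2140. It rises with leaf counts by construction.

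The leaf limit of 100 counts falls within a dense range. Just inside it were TR66334|c184802_g1_i1 with 100 counts in leaf 3 and 130 in leaf 4, TR162461|c74087_g1_i1 with 100 and 106, TR47547|c155418_g1_i1 with 100 and 104, and TR181481|c86856_g1_i1 with 101 and 143. Just outside, also with 0 in root, were TR143141|c53690_g1_i1 with 115 and 99, TR65471|c183515_g1_i1 with 111 and 99, TR81695|c207160_g1_i1 with 99 and 123, and TR86832|c214361_g1_i1 with 98 and 121. Nothing in these values separates the contigs inside from those outside.

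The limit of 0 in root sets aside contigs of high leaf level, some of them above the highest member at 202 CPM. TR5252|c163629_g1_i1 had 7930 counts in leaf 3 and 9907 in leaf 4, at 459 ± 29.4 CPM, and was left out for 1 count in root 4. TR2562|c110645_g1_i1 (4179 and 5354 leaf counts) and TR2943|c122067_g1_i1 (2955 and 4015) also had 1 count in root 4 and 0 in root 2. TR7281|c194625_g1_i1 (2868 and 3654) had 1 count in root 2 and 0 in root 4. Of the 21157 contigs at the leaf limit, 224 had 0 root counts (1.06%), 116 had 1, 90 had 2 and 65 had 3. From 4 to 10 root counts, each count was met by 39 to 59 contigs.

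The share of contigs at 0 in root was lower at high leaf levels. Under 10 CPM in leaf, 75 of 6253 contigs were members (1.20%). Among contigs of 10 to 20 CPM in leaf, 77 of 6564 were members (1.17%), and among those of 20 to 50 CPM, 55 of 5099 (1.08%). From 50 to 100 CPM it was 12 of 1802 (0.666%), and above 100 CPM 5 of 1439 (0.347%). Contigs with 1 to 10 root counts took up 3.20%, 2.88%, 2.45% and 2.39% of these groups up to 100 CPM, in rising order of leaf level, and 4.66% of the group above 100 CPM.

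The number of members depends strongly on the limit, and not in the same way in the 2 tissues. At 10 counts in each library, 1396 contigs were seen in leaf alone and 3690 in root alone, which was 2.83% and 8.40% of the contigs at that limit in leaf and in root. At 50 counts the numbers were 366 and 303 (1.25% and 1.26%). At 100 counts they were 224 and 109 (1.06% and 0.651%), at 500 counts 38 and 8, and at 1000 counts 13 and 2. At 2000 counts 3 contigs remained in leaf and 0 of 1053 in root. Root alone was thus the larger set at low counts and leaf alone at high counts. No test was made of this, since 1 number stands on each side, and the limits are in counts, not corrected for the depth of the libraries.

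**Figure D1:**
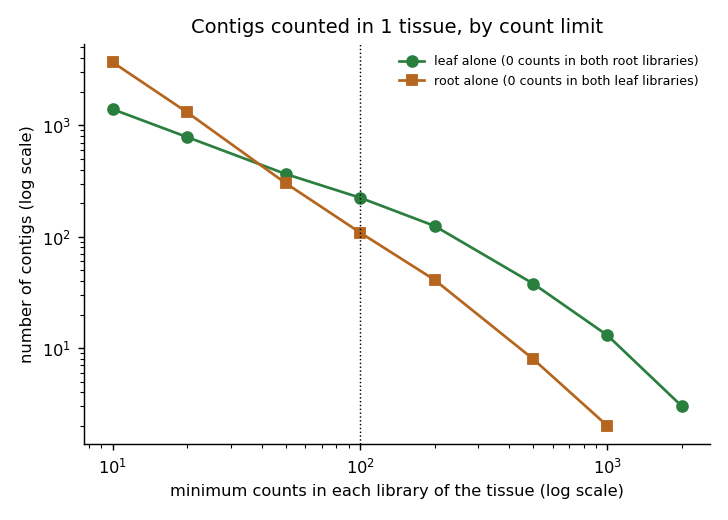
Number of contigs counted in 1 tissue alone (vertical axis, log scale) against the minimum count required in each library of that tissue (horizontal axis, log scale), for leaf (green circles) and root (brown squares). The lines cross between 20 and 50 counts, and at the limit of 100 (dotted line) there were 224 contigs in leaf alone and 109 in root alone. The root value at 2000, which is 0, cannot be drawn on a log axis.

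The 2 root libraries did not contribute equally to the rule. Of the 21157 contigs, 512 had 0 counts in root 2 (2.42%) and 276 had 0 in root 4 (1.30%). A further 288 were thus at 0 in root 2 and counted in root 4, whereas 52 were at 0 in root 4 and counted in root 2. Those 52 had at most 11 counts in root 2, with a median of 2. The 288 also had a median of 2 counts in root 4, but reached 26914. Without root 4 the rule would take in 512 contigs, and without root 2 it would take in 276. Root 2 had the smaller TMM-scaled total, 14072164 against 17744144 in root 4, so the same CPM gives fewer counts there. What this adds to its zeros was not tested.

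Among the 288, 49 contigs of 28 components formed a group of their own, described here after their values were seen. In root 4 they stood at 70.4% to 110% of their leaf level, with a median of 88.7%, while 236 of the 288 were under 10% and 3 lay between 10% and 50%. TR581|c173854_g1_i1 had 29416, 36431, 26914 and 0 counts in leaf 3, leaf 4, root 4 and root 2, so that it was at least 7110-fold higher in root 4 than in root 2 (3 counts in place of 0). TR25373|c109750_g1_i1 had 1266, 1468, 1044 and 0 counts in the same order, and TR40891|c143938_g1_i1 had 851, 973, 747 and 0. The 49 contigs held 36015 counts of root 4, or 0.236% of that library. The leaf libraries and root 4 thus shared them at nearly 1 level and root 2 lacked them, a split that follows a single library and not the tissue, and its source was not tested. None of the 49 is a member, because root 4 counted them.

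**Figure D2:**
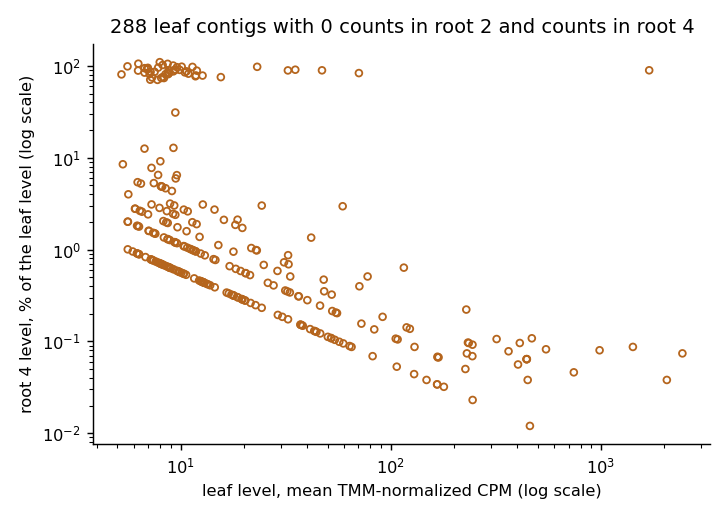
Level in root 4 as a percentage of the leaf level (vertical axis, log scale) against the mean leaf level in CPM (horizontal axis, log scale) for the 288 contigs with at least 100 counts in both leaf libraries, 0 counts in root 2 and at least 1 count in root 4, 1 circle per contig. A group of 49 lies between 70.4% and 110%, apart from 236 under 10%, and the slanting rows are contigs with the same small whole number of counts in root 4.

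Within the members, the 2 leaf libraries agreed to within 1.5-fold for 206 of 224 contigs (92.0%) and to within 2-fold for 222 (99.1%). The other 20933 contigs at the leaf limit gave 93.7% and 99.2%. The log2 ratio of leaf 3 to leaf 4 had an SD of 0.35 over the members and 0.37 over the other contigs. Pearson's r of the log2 levels was 0.946 across the 224 contigs and 0.965 across the others, contigs being no independent replicates and the members spanning a narrower range of levels. The leaf libraries differed by more than counting error would give, with a chi-square per degree of freedom of 12.2 over the members and 89.8 over the other contigs. Given such extra spread, this measure rises with the counts, and it was 19.5 over the 112 members of higher leaf level. The 2 values therefore do not compare the agreement of members with that of the other contigs, whose counts reach higher.

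**Figure D3:**
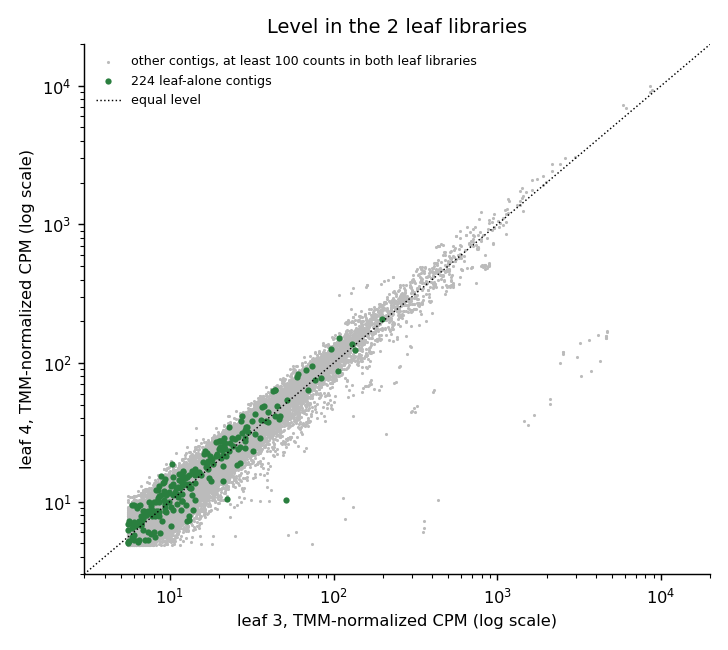
Level in leaf 4 against level in leaf 3, both in TMM-normalized CPM on log scales, for the 224 leaf-alone contigs (green) and for the other contigs with at least 100 counts in both leaf libraries (grey). Of the green points 206 lie within 1.5-fold of the dotted line of equal level, and 1, at 51.1 CPM in leaf 3 and 10.2 in leaf 4, lies far from it.

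The members leaned towards leaf 4. Of 224, 154 were higher in leaf 4 (68.8%) and 70 in leaf 3, with a median log2 ratio of leaf 3 to leaf 4 of -0.15, against 53.8% higher in leaf 4 and a median of -0.03 over the other contigs. Another scaling would move both medians alike. With 1 library on each side this is a difference between libraries and has no replicate check.

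The least even member was TR88861|c217226_g1_i1, alone in its component, with 926 counts in leaf 3, 210 in leaf 4 and 0 in root 2 and root 4. It was 5.03-fold higher in leaf 3, at 30.7 ± 29.0 CPM. TR1585|c70843_g1_i1 followed with 404 and 215 leaf counts (2.14-fold higher in leaf 3), and no other member differed by more than 2-fold. Without TR88861|c217226_g1_i1 the SD of the log2 ratio was 0.31 and the chi-square per degree of freedom 9.81. TR102461|c3349_g1_i1 was the furthest the other way, with 186 counts in leaf 3 and 385 in leaf 4 (1.81-fold higher in leaf 4). TR152272|c63977_g1_i1 (231 and 149) and TR106594|c8843_g1_i1 (236 and 153) were 1.77-fold and 1.76-fold higher in leaf 3. The most even were TR5173|c162388_g1_i1 with 370 and 423 counts, TR87254|c214970_g1_i1 with 282 and 321 and TR25353|c109699_g1_i1 with 520 and 597, which differed between the leaf libraries by less than 1% after scaling.

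The identifiers show which contigs were assembled together. The c number runs through the whole table in 1 series, and the digits after TR are the component number followed by the index of the contig within it, so that TR3532|c134116_g1_i1 is contig 2 of component 353. Read in this way, without an exception among 232701 contigs, the table holds 167165 components, of which 140386 have 1 contig. The 224 members fell into 153 components. In 115 components there was 1 member, in 21 there were 2, in 9 there were 3, and the other 8 held 4 to 7. The 38 components with 2 or more members held 109 of the 224.

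Neighbouring c numbers and components gave nearly the same grouping, which is largely built in. Components were read along the order of the c numbers, so the contigs of 1 component are neighbours by construction. Sorted by c number, 52 steps from 1 member to the next were of size 1, and all 52 stayed within a component. With steps of up to 5 allowed, 71 steps joined members, again all within a component, and the number of groups was 153, the same as the number of components. No members of different components lay within 5 c numbers of each other. With 224 members among 232701 contigs such neighbours would be rare in any case, so the match is no check on the components.

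Members of 1 component had more alike leaf ratios than members of different components. The median absolute difference of the log2 ratio was 0.14 over 132 pairs within a component and 0.29 over 24844 pairs from different components. Components with more members give more pairs, so the larger ones weigh more in the first median. Of the 38 components with several members, all members were higher in leaf 4 in 16, all higher in leaf 3 in 10, and they ran both ways in 12. Contigs of a component share sequence and RSEM divides reads among them, so they are not separate observations, and the 224 contigs stand for at most 153 independent units.

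Within a component, 1 contig may be at 0 in root while the next is not. The 153 components hold 592 contigs, 224 members and 368 others. Of the 368, 63 also had 0 root counts but under 100 counts in a leaf library. A total of 237 reached 100 counts in both leaf libraries and were counted in root, 143 of them with only 1 to 10 root counts. The remaining 68 had root counts and fewer than 100 counts in a leaf library. The level of 44 of the 368 was higher in root than in leaf. These other contigs were not used by the rule, although RSEM ties their counts to those of the members.

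Summed over all contigs, 72 of the 153 components had no root count at all (47.1%), and they held 89 of the 224 members (39.7%). Of these 72, 50 consist of 1 contig and 6 consist of several contigs that are all members, so the rule alone fixes their root count at 0. The other 16 also hold contigs that are not members, and none of these was counted in root. A further 41 components with 81 members had 1 to 10 root counts, 13 components with 18 members had 11 to 99, and 27 components with 36 members had at least 100. In the 41 components the root level was at most 0.304 CPM beside a median leaf level of 65.7 CPM.

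In the 27 components with at least 100 root counts, root made up a median of 17.5% of the summed leaf and root levels, from 1.48% to 71.0%. Over all 153 components the median was 0.0271%, against 49.9% over the 8957 components that hold a contig at the leaf limit, of which 0.804% had no root count. That gap is largely built in, because the rule took contigs at 0 in root. The summed root level was above the summed leaf level in 5 components.

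**Figure D4:**
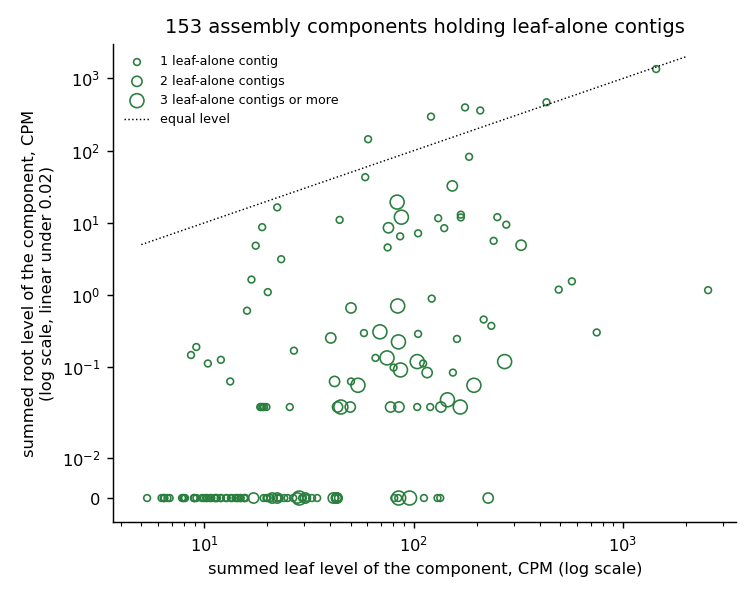
Summed root level (vertical axis, log scale, linear under 0.02) against summed leaf level (horizontal axis, log scale), both in CPM as the mean of 2 libraries, for the 153 components that hold leaf-alone contigs. Circle size gives the number of leaf-alone contigs. The 72 components on the lower edge had no root count, and 5 lie above the dotted line of equal level.

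Component 2535 held the most members, 7 of its 9 contigs, c109697 to c109705. The member of highest level in it, TR25353|c109699_g1_i1, had 520 counts in leaf 3, 597 in leaf 4 and 0 in root, at 28.8 ± 0.124 CPM. The 7 members spanned 14.3 to 28.8 CPM in leaf, and 1 root count was found in the whole component, in TR25352|c109698_g1_i1 (317 and 378 leaf counts). That contig missed the rule through this 1 count. The component summed to 2916 counts in leaf 3 and 3583 in leaf 4 against 0 in root 2 and 1 in root 4.

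Component 2726 had 6 members among 8 contigs, led by TR27268|c115003_g1_i1 with 854 and 860 leaf counts (44.4 ± 3.92 CPM) and 0 in root. Its 2 other contigs, TR27265|c115000_g1_i1 and TR27267|c115002_g1_i1, were the most abundant of the component at 46.1 and 47.1 CPM in leaf and had 1 and 3 root counts. The component summed to 5265 and 5219 counts in leaf 3 and leaf 4, and to 1 and 3 counts in root 2 and root 4. Component 4754 had 5 members among 7 contigs, led by TR47542|c155413_g1_i1 (347 and 439 leaf counts), and summed to 1270, 1634, 3 and 1 counts in the same order. All 4 of its root counts lay in TR47546|c155417_g1_i1.

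Component 8725 had no root count in any of its 8 contigs. Its 5 members were led by TR87256|c214972_g1_i1, with 721 and 772 leaf counts and 38.6 ± 1.74 CPM. The 3 other contigs, TR87255|c214971_g1_i1, TR87257|c214973_g1_i1 and TR87258|c214974_g1_i1, were kept out by their leaf counts alone, which were 75 and 109, 18 and 7, and 73 and 71 in leaf 3 and leaf 4. In sum the component had 1751 counts in leaf 3 and 1954 in leaf 4. Component 5946 had 3 contigs, all of them members, with 1469 and 1829 leaf counts in sum and 0 in root, and component 9711 also had 3 contigs, all members, with 446 and 664.

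Component 8169 showed both behaviours. It has 16 contigs, of which 13 had 0 root counts, 5 of these being members and 8 lying under 100 counts in a leaf library. The leading member, TR81691|c207156_g1_i1, had 189 counts in leaf 3, 232 in leaf 4 and 0 in root. A single contig, TR816915|c207170_g1_i1, carried 623 of the 625 root counts of the component (99.7%), with 243 in root 2 and 380 in root 4 beside 114 and 111 in leaf 3 and leaf 4. Its level was 19.3 CPM in root and 5.83 in leaf, the reverse order to its neighbours.

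**Figure D5:**
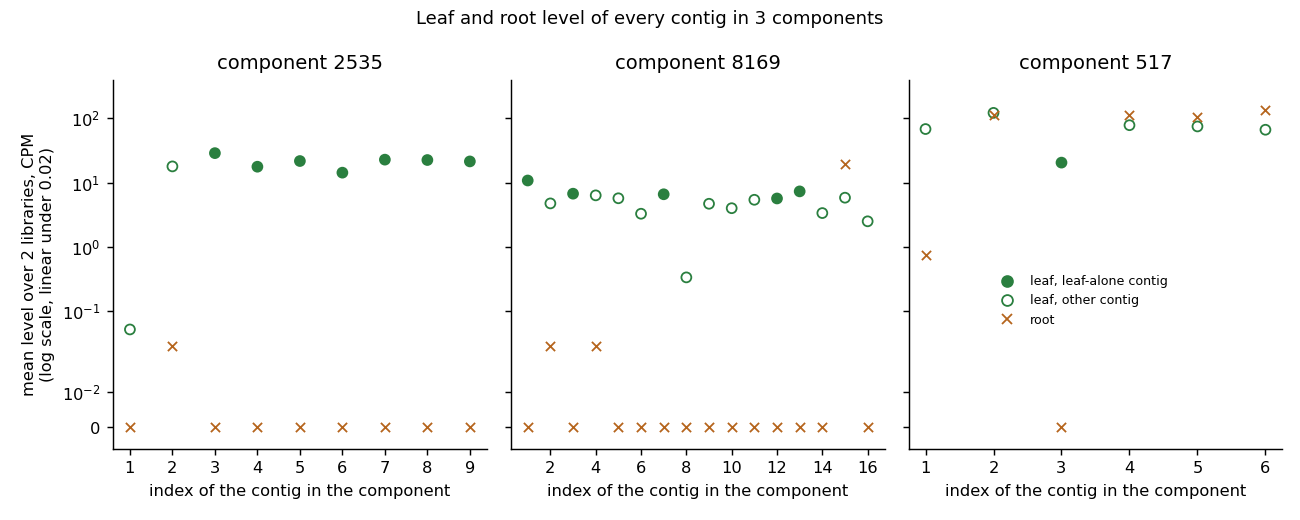
Mean level in CPM over 2 libraries (vertical axis, log scale, linear under 0.02) of every contig of components 2535, 8169 and 517, by the index of the contig in the component (horizontal axis). Circles are leaf levels, filled for leaf-alone contigs, and crosses are root levels. In component 8169 the root counts sit in contig 15 alone but for 2, and in component 517 contig 3 is the single one at 0 in root.

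The members in components with the most root counts were single contigs next to abundant root ones. In component 517, TR5173|c162388_g1_i1 had 370 counts in leaf 3, 423 in leaf 4 and 0 in both root libraries. The 5 other contigs of the component held all of its 14421 root counts, and TR5176|c162391_g1_i1, for example, had 1016 and 1591 leaf counts and 2497 and 1660 root counts. The member was not the only contig of the component mainly in leaf. TR5171|c162386_g1_i1 had 1129 and 1536 leaf counts beside 12 and 11 root counts. The component as a whole stood at 431 CPM in leaf and 468 in root. In component 676, which has 2 contigs, TR6762|c186788_g1_i1 had 473 and 497 leaf counts and 0 in root, while TR6761|c186787_g1_i1 had 3072 and 4042 in leaf and 7228 and 3663 in root.

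Component 2347 was built the same way, with TR23472|c104493_g1_i1 at 309 and 357 leaf counts and 0 in root and TR23471|c104492_g1_i1 at 743, 949, 2687 and 1731 counts in leaf 3, leaf 4, root 2 and root 4. TR5308|c164454_g1_i1 of component 530 (214 and 281 leaf counts) and TR11628|c21644_g1_i1 of component 1162 (252 and 179) were also at 0 in root inside components whose root level was 397 and 296 CPM against 176 and 121 in leaf. In component 55, TR555|c169166_g1_i1 had 183 and 138 leaf counts, or 0.578% of the leaf counts of a component that held 39965 root counts. Another contig of component 55, TR552|c169163_g1_i1, was also mainly in leaf, at 588 CPM against 19.2 in root. For the members named here the count of 0 describes the contig and not the component. These 6 components, 517, 530, 676, 1162, 2347 and 55, were picked with their values known, for having the most root counts.

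The most abundant member belongs to a component counted almost wholly in leaf. Beside TR3532|c134116_g1_i1, component 353 has TR3531|c134115_g1_i1 with 6264 and 7853 leaf counts, TR3533|c134117_g1_i1 with 3053 and 3406 and TR3534|c134118_g1_i1 with 294 and 371. Their root counts were 0 and 5, 0 and 2, and 3 and 0 in root 2 and root 4. The contig of highest leaf level in the component was therefore not a member, for 5 counts. Component 1905, with TR19051|c91164_g1_i1 as its leading member, had 4 members among 5 contigs and 1 root count.

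The quasi-likelihood test of edgeR over all 47385 contigs above 1 CPM in at least 2 libraries took in all 224 members. It called 68 of them higher in leaf at a false discovery rate (FDR) under 0.001 and a change of at least 4-fold, beside 1.45% of all tested contigs called higher in leaf. edgeR's exact test called 224 of 224 (13.0% of all tested) and DESeq2 called 224 of 224 (10.4% of all tested). The rule used this same contrast, so these counts describe the tests and nothing is read from them about the members. By the quasi-likelihood test the 68 had leaf levels of 17.2 to 202 CPM and the 156 others 5.28 to 34.6 CPM. The FDR of all 224 lay between 0.000879 and 0.00799, so that those not called missed a limit close to the lowest FDR that test gave over all contigs.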

How the data were processed

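Leaf and root RNA of *C. majus* was sequenced in 2 libraries each. The authors deposited expected counts per contig, which RSEM estimated from the Bowtie alignments of a library to a BinPacker assembly (k-mer 25). RSEM and edgeR are named in the submitters' processing notes without versions, and that of Bowtie is likewise not given in the sources used here. Since all deposited values were whole, rounding changed nothing. All 4 columns were used.

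Members were counted and components decoded from the identifiers with Python 3.11.15 and pandas 2.3.3, and intervals computed with scipy 1.17.1. For calls, a contig had to exceed 1 CPM in at least 2 libraries, and counts were scaled by TMM (factors 1.03 for leaf 3, 1.09 for leaf 4, 0.729 for root 2, 1.23 for root 4). The tissues were compared by the quasi-likelihood test of edgeR (edgeR 4.0.16, R 4.3.3) with Benjamini-Hochberg adjustment, and by edgeR's exact test and DESeq2 1.42.0 as alternatives. CPM is the count divided by the TMM-scaled total of the tested contigs. The fit was run on simulated counts with planted changes, none of them a full absence from a tissue. The decoding was run on identifiers built by the naming scheme it assumes, which does not check that scheme.

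The members, limits and lists were chosen with earlier results of these data known. Named are the 12 most abundant members and the leading member of the 5 components with the most members. So are the 5 least and 3 most even between leaf libraries, 4 on each side of the leaf limit and 4 just outside the root limit. Other contigs of their components are given beside them, and any contig named beyond this was chosen after its values were seen. FDR values rest on the spread between 2 libraries per tissue, described as biological replicates but not tied to single plants. The alternatives were other count limits, a limit in CPM, thinning to the smallest library, other scalings, groupings, tests and filters, and leaving out each library.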

Additional observations from a re-analysis of the deposited data

How the results depend on the processing

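The number of members followed its limits: 366, 125 and 38 contigs at 50, 200 and 500 counts in each leaf library, and 340, 430 and 598 with at most 1, 2 and 5 root counts allowed. It was 235 with 5 CPM as the leaf limit and 208 after thinning to the smallest library. Leaving out 1 library in turn gave 233 to 512 contigs in 161 to 315 components, of which 96 to 298 contigs lay in components without any root count, the highest value being without root 4 each time. With up to 10 root counts allowed in a component, 170 members lay in such components, against 89. The share of leaf counts was 0.463% to 0.533% with 1 leaf library and 0.587% when the 100 most abundant contigs were taken out of the totals. The median log2 ratio of leaf 3 to leaf 4 was -0.21 with DESeq2 size factors and -0.23 with library totals. Of the 224 members, edgeR's exact test, DESeq2, and the quasi-likelihood test without a filter on low counts each called 224, and so did the quasi-likelihood test on the same contigs without leaf 3, leaf 4, root 2 or root 4 (the lone library of a tissue being assumed to vary like the other tissue), against 68 with all 4 libraries. The cause was not tested. No paired analysis was possible because nothing ties a leaf library and a root library to the same plant, the 1 replicate number they share included. The 2 libraries per tissue and a floor of 3 counts limit what a count of 0 can show.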
